A study of Homo sapiens with 8 samples.

Results

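A total of 414 estrogen receptor (ER) binding sites were strong ER peaks of a single siCtrl library, with no called peak in the other siCtrl library or in either siCDK12 library. They were chosen by the peak values themselves. ER peaks from 4 chromatin immunoprecipitation and sequencing (ChIP-seq) libraries were taken at a q-value threshold of 0.05, on the autosomes and sex chromosomes, and any peaks sharing 1 bp or more were joined into a site. Sites with a peak in 1 library alone were kept where that library was siCtrl and its highest -log10 q was at least 5. These sites, called members here, made up 1.63% of the 25365 merged sites and 38.1% of the 1086 sites whose highest -log10 q was at least 5. siCtrl replicate 2 gave 323 of them and siCtrl replicate 3 gave 91.

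The study knocked down CDK12, a cyclin-dependent kinase of transcription elongation, and mapped ER on chromatin in LY2 cells, an ER+ breast cancer line. LY2 was derived from MCF-7 cells by selection for resistance to an antiestrogen. All libraries came from cells kept for 24 h in serum-depleted medium without 4-OHT (4-hydroxytamoxifen, an ER antagonist), transfected for 48 h and treated for 1 h with 1 µmol/L β-estradiol, so the controls had estradiol too. The siCtrl group received a control siRNA and is represented by replicates 2 and 3, and the siCDK12 group received siRNA against CDK12 and is represented by replicates 3 and 4. Per the study's methods, 1 further replicate of each condition, which diverged from the others, was excluded. The labels do not say whether the replicates came from separate cultures. Peak lists hold no expression values, so neither the knockdown nor the identity of the line was checked here. The input libraries were not analysed here.

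ER is a nuclear receptor that binds DNA as a dimer. Its preferred site, the estrogen response element, is a pair of inverted repeats of the motif GGTCA with 3 bases between them, and ER also binds single copies of the motif or is held at chromatin by other factors such as AP-1. In luminal breast cancer cells most ER sites lie far from promoters, in enhancers that are opened by pioneer factors such as FOXA1 and GATA3. Estradiol moves the receptor onto these sites within an hour. A peak found in 1 replicate only is usually set aside, since consensus peak sets ask for a site in several libraries. The questions addressed here are what these strong but unrepeated control peaks look like, whether their sequence resembles that of ER sites found in both siCtrl libraries, and where in the genome they lie.

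The element was searched as GGTCANNNTGACC, a motif that reads the same on both strands, allowing 1 mismatch among its 10 fixed bases, in the 100 bp on either side of the summit, which is the base where the most fragments pile up. The sequences of 5 strong members of each siCtrl library that held one are shown as cases of a strong control peak with the receptor's own motif that no other library called. They are the strongest such members, except that the fifth strongest peak of siCtrl replicate 3 is given further on by its values alone. All are on the plus strand of GRCh38. Capitals mark the element. Departures from the motif are counted from 1 at the left end of the capitals, with the motif's base before the number and the genome's base after it. The first 5 are from siCtrl replicate 2 and the last 5 from siCtrl replicate 3, each from the strongest peak down.
PARD6B, 4059 bp from the start, intergenic, chr20:50727494-50727554, G10C: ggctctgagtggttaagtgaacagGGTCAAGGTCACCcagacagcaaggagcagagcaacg
CCDC88C intron 3, chr14:91394448-91394508, G10A: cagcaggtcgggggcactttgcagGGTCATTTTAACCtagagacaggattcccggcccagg
SSR3 exon 5, chr3:156542487-156542515, no mismatch: catggcagGGTCAAGTTGACCtccctggc
CACNA1H intron 2, chr16:1190847-1190907, A5T: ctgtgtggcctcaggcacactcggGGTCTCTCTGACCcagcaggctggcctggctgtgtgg
CFAP99 intron 1, chr4:2422707-2422767, T3G: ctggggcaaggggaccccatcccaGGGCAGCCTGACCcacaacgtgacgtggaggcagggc
MAML3 intron 2, chr4:139842164-139842224, T3G: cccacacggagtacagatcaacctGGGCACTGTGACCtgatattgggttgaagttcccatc
LYZL1, nearest gene, intergenic, chr10:29101289-29101349, A11G: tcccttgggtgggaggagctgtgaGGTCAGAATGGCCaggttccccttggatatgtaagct
INTS6P1, nearest gene, intergenic, chr5:39755480-39755540, T3C: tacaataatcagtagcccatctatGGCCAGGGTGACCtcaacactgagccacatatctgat
CDK7P1, nearest gene, intergenic, chr2:157125366-157125426, T3G: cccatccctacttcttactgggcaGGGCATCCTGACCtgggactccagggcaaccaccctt
TCF20 intron 3, chr22:42173696-42173756, C13T: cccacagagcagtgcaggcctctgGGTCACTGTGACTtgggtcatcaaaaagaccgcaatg

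Strong members without an element were the larger group. The summits of 3 of them from siCtrl replicate 2 and 2 from siCtrl replicate 3 are shown for contrast, again the strongest, except that the second strongest peak of siCtrl replicate 2 is given by its values alone. They are centred on the summit, with a shorter stretch for the exonic RUNX1 peak. Capitals here mark single copies of AGGTCA, the extended motif of 1 receptor subunit, read on the plus or the minus strand. The PRKAG2 and RHCG peaks and the RUNX1 peak are from siCtrl replicate 2, and the others are from siCtrl replicate 3.
PRKAG2 intron 1, chr7:151856693-151856793: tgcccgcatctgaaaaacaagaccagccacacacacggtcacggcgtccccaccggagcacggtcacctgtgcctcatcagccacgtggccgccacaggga
RHCG, nearest protein-coding gene, chr15:89441397-89441497: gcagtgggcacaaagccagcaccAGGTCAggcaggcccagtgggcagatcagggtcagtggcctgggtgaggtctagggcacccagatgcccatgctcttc
RUNX1 exon 2, chr21:35048853-35048881: cactgtgggtacgaaggaaatgactcaaa
SERPINA6 intron 1, chr14:94321486-94321586: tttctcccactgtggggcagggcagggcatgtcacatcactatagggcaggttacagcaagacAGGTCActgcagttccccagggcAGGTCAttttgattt
BCAS3 intron 22, chr17:61277072-61277172: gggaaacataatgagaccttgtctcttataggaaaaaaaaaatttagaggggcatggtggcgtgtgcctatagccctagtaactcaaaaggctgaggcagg
The SERPINA6 window held 2 such copies and the RHCG window held 1, whereas the BCAS3 window held none.

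The 2 siCtrl libraries contributed unequally. siCtrl replicate 2 had 12021 called peaks, of which 6.73% reached a -log10 q of 5, and siCtrl replicate 3 had 4955 called peaks, of which 9.45% did. Of the 808 sites with so strong a peak in siCtrl replicate 2, 40.0% had no called peak in any other library. The same share was 19.4% of 468 sites in siCtrl replicate 3, 21.5% of 130 in siCDK12 replicate 3 and 28.4% of 109 in siCDK12 replicate 4. Strong peaks were thus fewer in both siCDK12 libraries than in either siCtrl library, and siCtrl replicate 2 stood apart both in its number of strong peaks and in the share of them that no other library called. When the 4000 strongest peaks of each library were merged instead, siCtrl replicate 2 gave 329 of 429 such sites (76.7%, against 78.0% of the members). That setting kept every peak with a -log10 q of at least 5. It could change the split only through weaker peaks, so it does not test the part played by list length. Read totals are unknown from peak lists. The genome-wide background under the peaks was close in all 4 libraries, at 7.19 and 7.56 fragments per kb of the smallest peak width in siCtrl and 7.59 in both siCDK12 libraries.

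Peak strength and fold are described without a test, because they or columns tied to them chose the members. The median member had a -log10 q of 6.23 (range 5.0 to 28.3) and a fold of 5.89 over the local background (range 2.33 to 11.4). The pileup at the summit, worked out from the deposited fold and p-value, was 18 fragments in the median member and ran from 12 to 133. Members of siCtrl replicate 2 and siCtrl replicate 3 had nearly the same medians, with a -log10 q of 6.27 and 6.09 and a fold of 5.91 and 5.78. Sites that both siCtrl libraries called and no siCDK12 library did, with a highest -log10 q of at least 5, numbered 312 and are called shared control sites here. Of these, 185 reached 5 in both siCtrl libraries and 127 in 1 of them. They had a median -log10 q of 12.6 and a median fold of 7.96. Just inside the threshold, the 3 lowest members had a -log10 q of 5.004, 5.006 and 5.049. The 3 highest single-library siCtrl sites just outside it had 4.997, 4.994 and 4.992, and 2 of these, like 1 of the 3 inside, lay on chromosome 20.

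**Figure D1:**
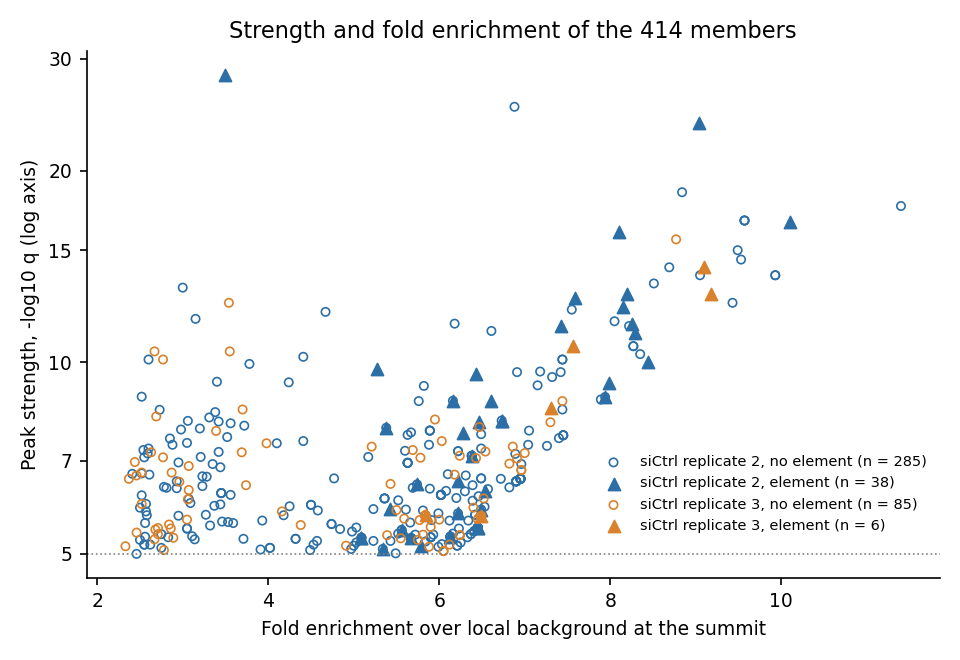
Peak strength (-log10 q, log axis) against fold enrichment for the 414 members, 1 point each, coloured by the siCtrl library that called the peak and drawn as a filled triangle where an estrogen response element lies within 100 bp of the summit. Members fall into a group of low fold, mostly between 2.33 and 4, that is nearly free of triangles and a group of higher fold that holds nearly all of them, and the strongest member of all, beside PARD6B, is a triangle at a fold of 3.49.

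The strongest member of siCtrl replicate 2 lay at chr20:50727461-50727622, beside PARD6B, which encodes a cell polarity protein. It had a -log10 q of 28.3, a fold of 3.49 and 133 fragments over a background 36.8 times that of the genome, and no other library had a called peak there. The third strongest was in intron 3 of CCDC88C (chr14:91394342-91394570), with a -log10 q of 23.8 and a fold of 9.04. PRKAG2, a regulatory subunit of AMP-activated protein kinase, had the fourth in its intron 1, with a -log10 q of 18.5 and a fold of 8.84. The fifth had the highest fold of any member, 11.4, and was intergenic, with the ammonia transporter gene RHCG as nearest protein-coding gene at 55142 bp. The sixth, in exon 2 of RUNX1, a hematopoietic and breast epithelial transcription factor, had a -log10 q of 16.7 and 26 fragments. The eighth had the same values and was intergenic on chromosome 9, with RGS3 as nearest protein-coding gene at 203586 bp. The ninth was in exon 5 of SSR3, a subunit of the translocon-associated protein complex, with a -log10 q of 16.6 and a fold of 10.1. The tenth was in intron 2 of CACNA1H, a T-type calcium channel gene, with a -log10 q of 16 and a fold of 8.10. The second and the seventh lay on chromosome 8, where the nearest protein-coding genes were MYC at 135333 bp and KCNU1 at 278050 bp, with a -log10 q of 25.2 and 16.7.

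In siCtrl replicate 3 the strongest member was in intron 1 of SERPINA6, which encodes corticosteroid-binding globulin, 1853 bp from its start (chr14:94321406-94321653). It had a -log10 q of 15.6, a fold of 8.77 and 27 fragments. It lay 1234 bp from a site that both siCtrl libraries called. The second, in intron 2 of MAML3, a coactivator of Notch signalling, had a -log10 q of 14.1 and a fold of 9.10. The third was intergenic, 187765 bp from LYZL1, with a -log10 q of 12.8 and a fold of 9.18. The fourth was in intron 22 of BCAS3, a gene named for its amplification in breast cancer, with a -log10 q of 12.4 but a fold of only 3.54 over a background 14.8 times that of the genome. The sixth (near NACA2), the seventh (intron 6 of DOK5, a docking protein) and the eighth (near ZNF217, a transcription factor of the 20q13 segment) were alike in this, with a fold of 2.67, 3.55 and 2.77 and 86, 54 and 79 fragments. The ninth, near LINC02304, and the tenth, near INTS6P1, again stood on a low background, with a fold of 7.44 and 7.31. The fifth lay on chromosome 8 with GFRA2 as nearest protein-coding gene at 319698 bp, and had a -log10 q of 10.6 and a fold of 7.56.

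Below the threshold, the other libraries had weak peaks at some of these sites. The deposited lists run past the q-value of 0.05, and 15 of the 414 members (3.62%, exact Clopper-Pearson 95% interval 2.04 to 5.91) overlapped such a weak peak of another library. Among members of siCtrl replicate 2, 5 overlapped a weak peak of siCtrl replicate 3, 4 one of siCDK12 replicate 3 and 3 one of siCDK12 replicate 4. Among members of siCtrl replicate 3, the numbers were 2 for siCtrl replicate 2, 0 for siCDK12 replicate 3 and 1 for siCDK12 replicate 4. Weaker single-library siCtrl sites overlapped a weak peak of another library in 181 of 14668 cases (1.23%), and members minus these sites was 2.39 points (0.961 to 4.66). Strong single-library siCDK12 sites did in 5 of 59 (8.47%), and members minus these was -4.85 points (-14.8 to 0.458). The members with a weak peak elsewhere included the TTC39A intron 6 site (-log10 q 11.5, weak peak in siCtrl replicate 3) and a site near NACA2 (-log10 q 11.7, weak peak in siCDK12 replicate 3). Counted over all 414 members, 45 had a called peak of another library within 1 kb but not overlapping. This count was not made for the other groups of sites, so it does not set members apart from them.

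The height of members beside the lowest called peaks is a description, since the rule's strength threshold sets it. On a local background no higher than 1.2 times the genome's, the smallest pileup that any library called was 7 fragments in siCtrl replicate 2 and 8 in the other libraries. The 97 members on such a background had 12 to 22 fragments, with a median of 13. The fragments of the other libraries at these sites are not part of peak lists and were not analysed here.

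An estrogen response element lay within 100 bp of the summit in 44 members (10.6%, exact 95% interval 7.83 to 14). In windows of the same size centred 1000 bp downstream of the same summits, 4 members held one (0.966%, 0.264 to 2.46), and over all merged sites the share at the summit was 1.91%. Members thus held the element more often than their own neighbouring sequence and more often than the sites of the series as a whole. The intervals given for shares and for differences cover counting error only, and they treat sites as independent although 131 members had another member within 100 kb.

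Members lay between their comparison groups in this respect. Of the 312 shared control sites 112 held an element (35.9%, 30.6 to 41.5), and members minus shared control sites was -25.3 percentage points (Newcombe 95% interval -31.3 to -19.2). Of the 14668 weaker siCtrl sites of a single library, with a highest -log10 q under 5, 193 held one (1.32%), and members minus these sites was 9.31 points (6.69 to 12.7). The same rule applied to siCDK12 gave 59 strong sites of a single library, of which 0 held an element, with an upper limit of 6.06%. The difference from the members was 10.6 points (3.98 to 14). Of the 59 sites 52 had a -log10 q of 5 to 7, and in that range members held an element in 17 of 271 cases (6.27%) and these sites in 0 of 52, a difference of 6.27 points whose interval of -0.987 to 9.82 includes 0. Both siCDK12 libraries contributed to these 59 sites, replicate 3 with 28 and replicate 4 with 31.

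**Figure D2:**
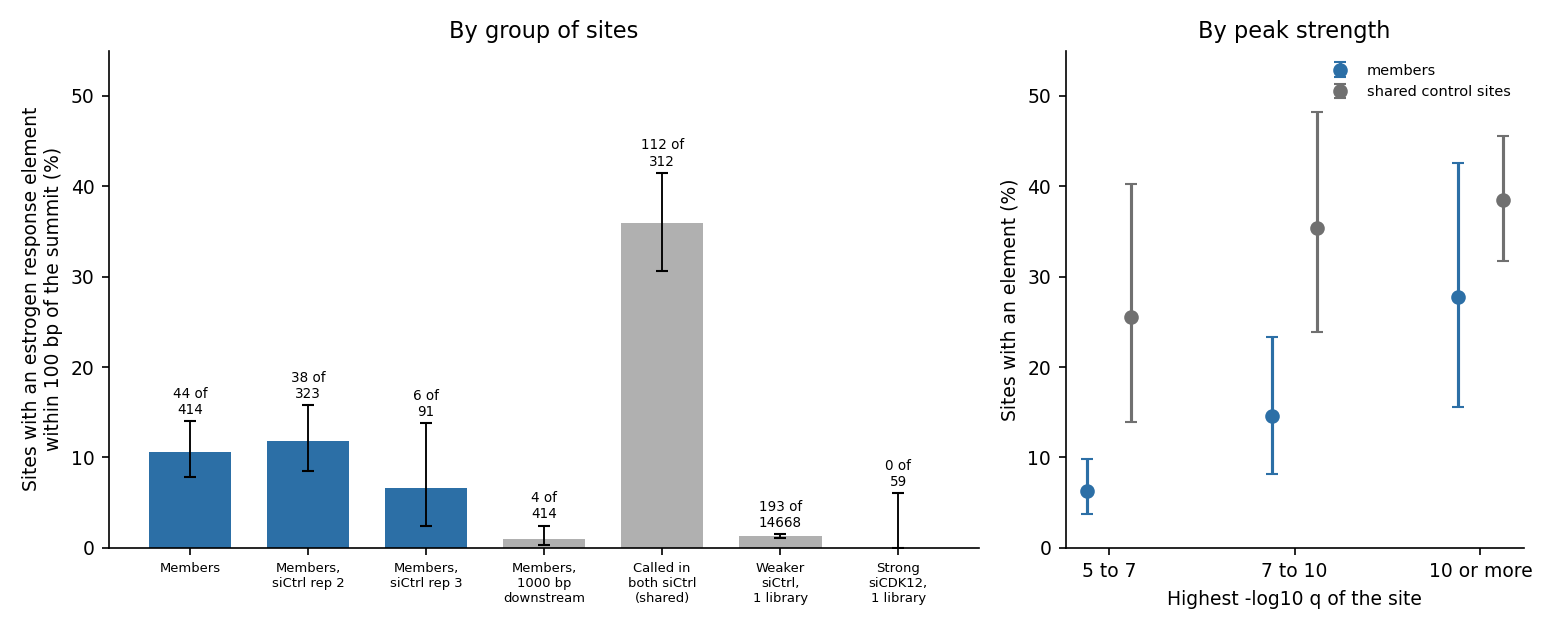
Share of sites with an estrogen response element within 100 bp of the summit (percent), on the left by group of sites and on the right by the site's highest -log10 q, with exact 95% intervals as error bars and the number of sites over each bar. Members (10.6%) stand above their own sequence 1000 bp downstream (0.966%) and the weaker single-library sites (1.32%), and below the shared control sites (35.9%). On the right the share in members is 6.27%, 14.6% and 27.7% from the weakest to the strongest bin.

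The share was higher at stronger peaks. Between a -log10 q of 5 and 7 it was 17 of 271 members (6.27%, 3.70 to 9.85), between 7 and 10 it was 14 of 96 (14.6%, 8.21 to 23.3), and at 10 or more it was 13 of 47 (27.7%, 15.6 to 42.6). In the same bins the shared control sites held one in 25.5%, 35.4% and 38.5%. Members minus shared control sites came to -19.3 points (-33.4 to -8.39) in the lowest bin and -20.8 (-34.2 to -7.34) in the middle bin. In the highest bin the difference was -10.8 points with an interval of -23.6 to 4.67 that includes 0. Members of siCtrl replicate 2 held an element in 38 of 323 cases (11.8%) and members of siCtrl replicate 3 in 6 of 91 (6.59%), a difference of 5.17 points (-2.52 to 10.5) that these numbers do not resolve.

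Where members held the element, it sat at the summit. In 31 of the 44 members its centre was no more than 25 bp away, and in 41 no more than 50 bp. The window held 2 or more elements in 4 members.

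**Figure D3:**
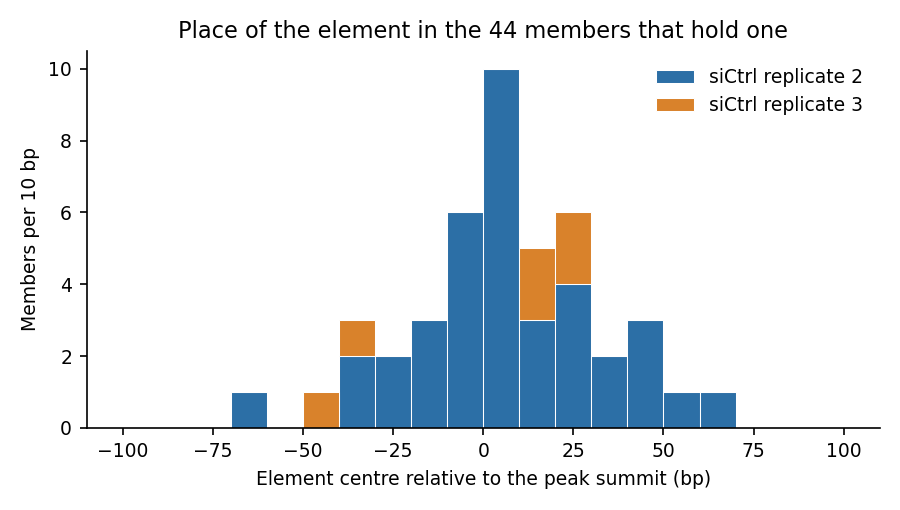
Distance of the element's centre from the peak summit, in bp, for the 44 members that hold an element, counted in steps of 10 bp and stacked by siCtrl library. The counts are highest within 10 bp of the summit, and 41 of the 44 lie within 50 bp.

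An element with no mismatch was found in 8 members, each of siCtrl replicate 2 (1.93% of members, against 8.01% of shared control sites and 0.0954% of the weaker sites). They are named here because of this match, after their values were seen. Beside SSR3, they were a site in an intron of SLC38A4-AS1 with SLC38A2, an amino acid transporter gene, as nearest protein-coding gene (-log10 q 9.60, fold 6.43), and a site in intron 1 of the adaptor gene SHC2 (8.70, 6.16). A site 30252 bp from TMEM270 had a -log10 q of 7.89 and a fold of 5.38. A site in exon 1 of LINC01101, with INHBB as nearest protein-coding gene, had 6.5 and 6.22. A site in intron 2 of TGIF2, a transcriptional repressor gene, had 6.43 and 5.74. The site in intron 2 of ZMIZ1, a nuclear receptor coregulator gene, had 5.79 and 6.22, and the site nearest to PPP1R26 had 5.29 and 5.67. Except at SSR3, these were sites of moderate strength.

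Single copies of AGGTCA within 100 bp of the summit, on either strand, were present in 134 members (32.4%, 27.9 to 37.1), against 15% in the windows 1000 bp downstream. Elements can contain such a copy, so the counts overlap. Shared control sites had one in 61.5%, and members minus shared control sites was -29.2 points (-36.0 to -22.0), and weaker single-library sites in 18.3%, and members minus these was 14.1 points (9.68 to 18.7). The share in the strong single-library siCDK12 sites was 20.3%, and the difference of 12 points from members had an interval of -0.661 to 21.5. Over all merged sites it was 19.2%.

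The motifs of ER's partner factors set members apart less or not at all. The AP-1 motif TGANTCA was within 100 bp of the summit in 7.73% of members, 10.3% of shared control sites and 6.59% of weaker sites, and 5.80% of the members' downstream windows held it. Members minus shared control sites was -2.53 points (-6.97 to 1.63). The forkhead motif TGTTTAC, bound by FOXA1, was in 2.66% of members and 3.14% of their downstream windows. The GATA motif AGATAA was in 6.52% of members, below the 15.7% of their downstream windows, and all merged sites had the same order, with 7.27% and 15.2%. The GC box GGGCGG was in 7.49% of members, and its difference was -5.01 points from shared control sites (-9.68 to -0.649) and 3.36 points from weaker sites (1.17 to 6.32). The share of G and C in the same window had a median of 50.2% in members and 53.2% in shared control sites. Absence of these letters from a window says nothing about the factor.

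Most members were far from promoters, as were the merged sites of the series as a whole. The summit was in an intron of a GENCODE gene in 226 members (54.6%), intergenic in 164 (39.6%) and exonic in 24 (5.80%), and the median distance to the nearest transcription start was 21000 bp. Over all merged sites the shares were 53.3%, 42.1% and 4.59%, and the median distance was 24600 bp. A start lay within 1 kb in 16 members (3.86%), against 8.65% of shared control sites (difference -4.79 points, -8.72 to -1.28) and 3.48% of weaker sites (difference 0.388 points, -1.12 to 2.73). Over all merged sites a start lay within 1 kb in 3.56%. Introns took a like share in shared control sites, 53.8% (difference 0.743 points, -6.53 to 8.03). The members had 303 distinct nearest protein-coding genes, and 42 of these genes were nearest to 2 or more members.

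Members differed widely in local background, along a continuous range that was split here at 3 times that of the genome. It was over 3 times that of the genome in 144 members (34.8%, 30.2 to 39.6), 28.2% of shared control sites, 39.0% of strong single-library siCDK12 sites and 7.22% of weaker siCtrl sites. Members minus weaker sites was 27.6 points (23.1 to 32.3), whereas members minus shared control sites was 6.58 (-0.280 to 13.2). A fixed strength threshold asks for more fragments where the background is higher. The 270 members on a lower background had a median of 15 fragments and a median fold of 6.43. The 144 on a higher background had a median of 45.5 fragments but a median fold of 3.22. An element was present in 40 of the 270 (14.8%, 10.8 to 19.6) and in 4 of the 144 (2.78%, 0.762 to 6.96). Shared control sites had one in 40.6% and 23.9% of the same classes, and members minus shared control sites was -25.8 points (-33.3 to -18.0) and -21.1 points (-31.1 to -12.3).

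**Figure D4:**
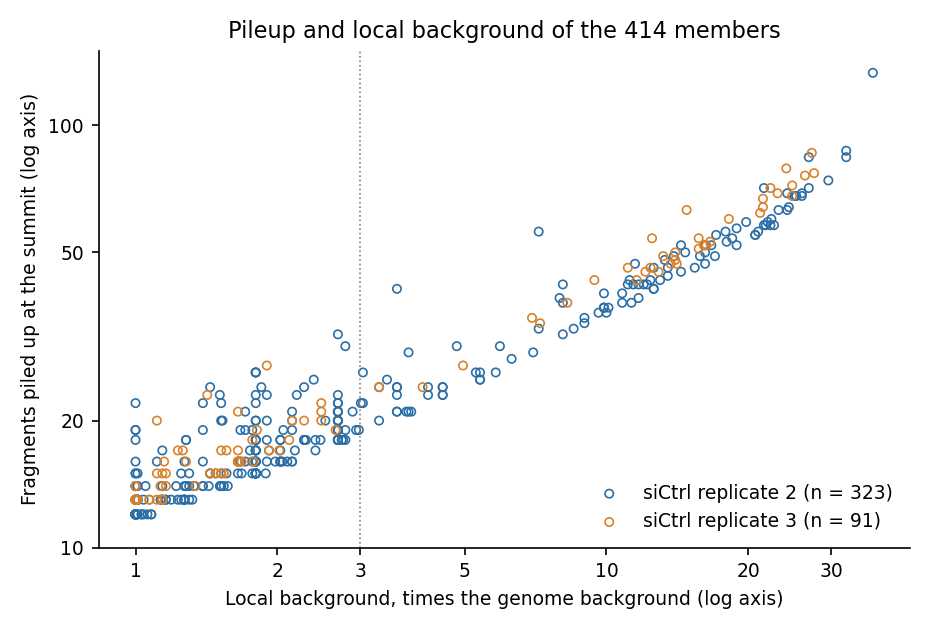
Fragments piled up at the summit against local background as a multiple of the genome background (both log axes) for the 414 members, 1 point each, coloured by siCtrl library, with a dotted line at 3 times the genome background. The points form a continuous band in which taller pileups stand on higher backgrounds, and the PARD6B member stands above it at 133 fragments and 36.8 times the background.

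The members on a high background were crowded into few places. Chromosome 20 held 64 members (15.5%), 44 of siCtrl replicate 2 and 20 of siCtrl replicate 3, against 5.51% of all merged sites and 7.37% of shared control sites, and 59 of the 64 stood on a background over 3 times that of the genome. Chromosome 17 held 36 members (8.70%, against 4.84% of all sites), but shared control sites had a larger share there, 11.5%. Chromosome 2 held 28 members (6.76%, against 11.4% of all sites), and shared control sites had a smaller share there, 5.77%.

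**Figure D5:**
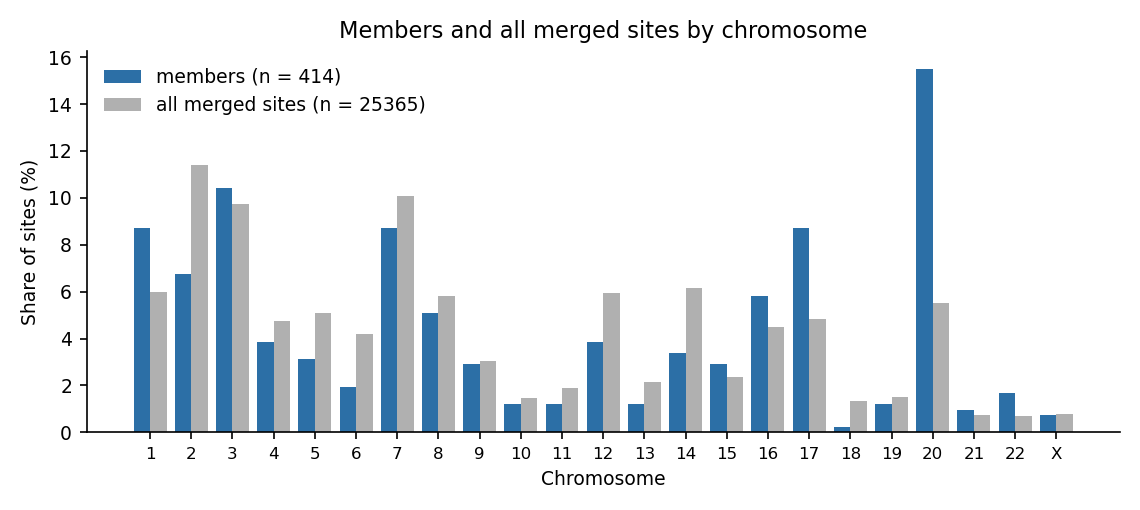
Share of the 414 members and of all 25365 merged sites on each chromosome, in percent, with bars from 0. Chromosome 20 takes 15.5% of members against 5.51% of all sites, and chromosome 17 takes 8.70% against 4.84%.

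In windows of 5 Mb, 9 windows had at least 6 members and a median background over 3 times that of the genome. They are a description, chosen on the members' own positions. On chromosome 20, 59 members lay between 45 and 60 Mb, with a median fold of 2.83 and a median pileup of 53 fragments, and 1 of them, the PARD6B site, held an element. On chromosome 17, 30 members lay between 55 and 65 Mb, with a median fold of 3.10. On chromosome 3, 21 members lay between 60 and 65 Mb, with a median fold of 3.42. On chromosome 1, 15 members lay between 105 and 115 Mb, and on chromosome 15, 6 lay between 50 and 55 Mb. The members of the segments on chromosomes 17, 3, 1 and 15 held 0 elements, and both siCtrl libraries contributed to each of the 5 segments.

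The background in these segments was raised in all 4 libraries. On chromosome 20 the median background under called peaks was 17.1 and 18.3 times that of the genome in siCtrl replicates 2 and 3, and 17.4 and 18.0 times in siCDK12 replicates 3 and 4. On chromosome 17 it was 14.4, 16.3, 16.8 and 14 times in the same order, and on chromosome 3 it was 10.5, 11.3, 11.0 and 10.9 times. Called peaks were denser too, with 457 and 329 on the chromosome 20 segment in siCtrl and 260 and 297 in siCDK12. Copy number was not measured, and its part in these peaks was not tested. Of the members 131 (31.6%, 27.2 to 36.4) lay in the 9 windows, against 14.1% of shared control sites, 42.4% of strong single-library siCDK12 sites and 7.77% of weaker siCtrl sites.

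The element was more frequent in members outside the 9 windows. Of the 283 members there, 43 held an element (15.2%, 11.2 to 19.9), with a median fold of 6.41 and a median pileup of 16 fragments, against 1 of 131 inside (0.763%, 0.0193 to 4.18). Shared control sites had an element in 40.3% outside and 9.09% inside. The weaker single-library sites had one in 1.32% outside and 1.23% inside. Outside the windows members minus shared control sites was -25.1 points (-32.1 to -17.8), close to the difference over all members. The 34 strong single-library siCDK12 sites outside the windows held 0 elements, with an upper limit of 10.3%.

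Members were also found beside sites that were called in both siCtrl libraries. A site of that kind lay within 10 kb of 79 members (19.1%, 15.4 to 23.2) and of 2.07% of the weaker single-library sites, a difference of 17 points (13.5 to 21.1). Strong single-library siCDK12 sites had such a neighbour in 8 of 59 cases (13.6%), and the difference of 5.52 points had an interval of -6.0 to 13.2 that includes 0. Most of these members lay in the 9 windows, where 65 of 131 members (49.6%), 22.4% of the weaker sites and 32.0% of the strong siCDK12 sites had such a neighbour. Outside the windows the shares were 14 of 283 (4.95%) and 0.355%, a difference of 4.59 points (2.61 to 7.78). CCDC88C and SERPINA6, at 1231 bp and 1234 bp from such a site, are examples outside the windows.

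The genes with the most members were those of these segments. DOK5 on chromosome 20 was the nearest protein-coding gene of 19 members, 14 from siCtrl replicate 2 and 5 from siCtrl replicate 3. NCOA3, a steroid receptor coactivator that binds ER, was that of 10, and ZNF217 that of 8. ADAMTS9, a matrix protease gene on chromosome 3, had 12 members and NACA2 on chromosome 17 had 8. BMP7, a growth factor of the TGF-β family, and PRMT6, an arginine methyltransferase, had 6 each. All of these members lacked an element. The 10 members at NCOA3 had a -log10 q of at most 7.84 and stood on a background of 13.7 to 26.0 times that of the genome.

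Of the gene lists compared, which were chosen with earlier results of these data known, the list of 20q13 and 17q22-q24 genes had 16 of 31 genes (51.6%) as nearest protein-coding or nearest gene of a member, and 11 of 31 (35.5%) as that of a shared control site. Over all 20020 protein-coding genes the shares were 303 (1.51%) and 267 (1.33%). Weaker single-library sites were nearest to 28 of the 31 genes and to 5696 of all protein-coding genes. The list covers regions that overlap the crowded segments on chromosomes 20 and 17, so its share partly restates where members lie. On 20q13 the genes with a member were ZNF217, BCAS1, CYP24A1 (a vitamin D hydroxylase), PFDN4, BCAS4, SULF2, PREX1, DOK5, CBLN4 and BMP7. On 17q they were TBX2, BCAS3, BRIP1, INTS2, TRIM37 and APPBP2. The site in intron 7 of CYP24A1 had a -log10 q of 5.31 and a fold of 2.83. The site nearest to PREX1, a guanine nucleotide exchange factor for Rac, had 6.23 and 3.45 and was intergenic at 249832 bp.

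Of 87 estrogen response genes found in the annotation, 6 (6.90%) had a member, against 19 (21.8%) with a shared control site. Over all 20020 protein-coding genes these shares were 1.51% and 1.33%. Weaker single-library sites were nearest to 38 of the 87 genes and to 5696 of all protein-coding genes. Each of the 6 members came from siCtrl replicate 2 and stood on a low background. The site 8186 bp from CTSD, which encodes the lysosomal protease cathepsin D, held an element and had a -log10 q of 10.0, a fold of 8.44 and 16 fragments. CXCL12, a chemokine, had a site at 212762 bp with a -log10 q of 10.3 and a fold of 8.35. The site nearest to FOXC1, a forkhead transcription factor, was in intron 9 of GMDS and had 9.67 and 7.18. The site in intron 2 of MLPH, which encodes melanophilin, had 8.10 and 6.73, and the site in intron 1 of RAPGEFL1, a guanine nucleotide exchange factor, had 7.13 and 6.38. INHBB, the inhibin beta B subunit, was the nearest protein-coding gene, at 119089 bp, of the LINC01101 site with an element without mismatch described above.

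Of 32 luminal transcription factors and ER cofactors 2 had a member (6.25%) and 0 had a shared control site, against 1.51% and 1.33% of all protein-coding genes. Weaker single-library sites were nearest to 19 of the 32. The 2 with a member were NCOA3, on the chromosome 20 segment, and GRHL2, a grainyhead transcription factor of epithelial cells. The GRHL2 site on chromosome 8 lay 25560 bp from its start, held an element and had a -log10 q of 9.77. A list of 27 genes held CDK12, cyclins, other cyclin-dependent kinases, DNA repair and checkpoint genes, and the transcription factor gene MYC. Of these, 2 had a member (7.41%), CDK6 and MYC, and 1 had a shared control site (3.70%). Weaker single-library sites were nearest to 8 of the 27. CDK6, a kinase of cell cycle entry, was nearest to a site of siCtrl replicate 3 with a -log10 q of 7.28 and a fold of 5.69 and to a site of siCtrl replicate 2 with 5.24 and 5.43, neither with an element. MYC was the nearest protein-coding gene of 3 sites of siCtrl replicate 2 without an element, with a -log10 q of 25.2, 12 and 5.30. These sites lay 135333, 489406 and 692715 bp from its start.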

How the data were processed

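ER ChIP-seq peak lists of 4 LY2 libraries were analysed, 2 siCtrl and 2 siCDK12. Per the study's methods, quality-filtered reads were mapped by the authors to GRCh38 using BWA-MEM, and MACS2 called narrow peaks library by library. Each deposited peak has a fold enrichment of pileup over local background at its summit, the -log10 of its p-value and q-value, and a whole-number score, which was not used. The authors made these values within each library, with no normalization between libraries, so a peak's presence depends on that library's depth, which is unknown here. Replicates were not pooled. Peaks past the stated q-value of 0.05 are also in the lists and were treated as weak.

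Called peaks were merged into sites with pandas 2.3.3 and numpy 2.4.6 (Python 3.11.15). Pileup and background were solved by taking the fold as (pileup + 1) / (background + 1) with a Poisson p-value (SciPy 1.17.1), and the genome background is the lowest one shared by many peaks of a library. Sequence was read from GRCh38 with pysam 0.24.0, and each site was given the gene of GENCODE release 44 whose transcription start was nearest, with canonical transcripts for exons and introns. Every sequence named in the lists was found in the reference, and 0 peaks ran past its end. Shares have exact Clopper-Pearson and differences Newcombe (statsmodels 0.14.6) 95% intervals, and no p-value is given, since sites were compared by presence of a peak and not by read counts, and an exact permutation of 2 libraries against 2 allows no small p-value. The merging of peaks into sites, the choice of members, the element search and the solution for pileup were tested on simulated data.

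The members, the gene lists and the comparisons were chosen with earlier results of these data known. The genes named by rule are the nearest ones of the 10 strongest members per siCtrl library, those of the members whose sequence is shown, and the list genes nearest to a member. The gene that holds the summit is given for some of the sites in an exon or intron. Other sites are named by a nearest gene alone, and some of those named for MYC, CDK6 and GRHL2 lay in an intron of another gene. The genes with the most members (such as ADAMTS9 and PRMT6), those with an element without mismatch and those of the closing section were named after their values were seen. Sequences are shown for the 5 strongest members with and the 3 strongest without an element per siCtrl library, leaving out chromosome 8. The sequence of 1 of these members is not reported here. A planned share of repeat bases was not computed, because the reference used has no repeat masking.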

Additional observations from a re-analysis of the deposited data

How the results depend on the processing

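Of 53 values recomputed under other settings, 33 stayed within the 95% interval of the reported value, or within 1.5 times of a reported count, and 20 moved. Only the differences of shares could change direction, and 0 of them did. Some counts were bound to stay, such as how many of the strongest members were still members at a lower strength threshold. The number of members followed the strength threshold, with 2135 at a -log10 q of at least 3 and 47 at 10, and was 307 to 605 with 1 library left out. At these thresholds siCtrl replicate 2 gave 72.3% and 83.0% of members, the element share was 4.36% and 27.7%, and members minus shared control sites was -10.8 points at 10. Without a mismatch the element share was 1.93% and the differences were -6.08 points from shared control sites and 1.84 points from weaker sites. Without the 9 windows the element share was 15.2% and the difference from weaker sites 13.9 points, and at a background of at most 3 times the genome they were 14.8% and 13.5 points (both settings chosen after seeing the data). With 1 library left out the element share was 9.87% to 27.4%. It was 27.4% without siCtrl replicate 2 and 23.8% without siCtrl replicate 3, since a site of the remaining siCtrl library then no longer needs to be absent from the other. A background over 2 or 5 times the genome was found in 49.3% and 28.5% of members. A transcription start lay within 2500 bp in 7.49%, and a protein-coding one within 1 kb in 1.21%. No paired analysis was possible because the siCtrl and siCDK12 ER libraries share only replicate number 3 and no result comes from a fitted test. Presence or absence of a peak in 1 of 2 libraries does not measure ER occupancy, and fragments below the calling threshold were not analysed here.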

Other observations

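Some further members with an element are named here after their values were seen, as examples only. KDM4B, a histone demethylase gene, had a site of siCtrl replicate 2 in intron 1 with a -log10 q of 11.1, a fold of 8.29 and 19 fragments. SNX24, a sorting nexin gene, had one in intron 1 with a -log10 q of 12.2 and a fold of 8.15, and its window held 2 elements. TTC39A had a pair of members with an element, in intron 6 and intron 2, with a -log10 q of 11.5 and 8.10, both of siCtrl replicate 2. IGF1, which encodes insulin-like growth factor 1, was the nearest protein-coding gene at 53303 bp of a site with a -log10 q of 6.27 and 14 fragments. In each case the background was at most 1.80 times that of the genome and siCtrl replicate 3 had no called peak.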
